A study of Mus musculus with 6 samples.

Results

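The sodium-potassium pump is the enzyme that carries sodium out of a neuron and potassium in at the cost of ATP. It is built from a catalytic alpha subunit, a beta subunit that brings the complex to the membrane, and often a small FXYD protein that tunes its affinity for ions. Because each cycle moves a net positive charge outward, the pump produces an outward current, and in preBötzinger Complex (preBötC) neurons this current has been linked to the end of the inspiratory burst. The genes described here are 6 of the 49568 gene names in the files, chosen by name as pump subunits, namely Atp1a4, Atp1b1, Atp1b2, Atp1b3, Fxyd6 and Fxyd7. All 6 were present. Of the catalytic subunit genes only Atp1a4, the isoform known from sperm, is reported here.

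RNA was sequenced from 6 samples of 15 preBötC neurons, each drawn by micropipette from a slice of a different postnatal day 2 mouse, with both sexes used. All 6 mice carried Dbx1CreERT2 and Rosa26tdTomato, with tamoxifen given to the dam during gestation, so that cells from Dbx1-expressing progenitors became fluorescent. The 3 Dbx1 samples held fluorescent neurons and the 3 non-Dbx1 samples held neuronal somata without fluorescence, a group defined by the absence of the label alone. The values were RPKM, reads on a gene scaled by its exon length and by the reads on all genes of the sample, so levels of different genes can be compared per length.

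Between 6464675 and 9432958 reads per sample fell on genes, and 16536 to 19143 gene names had RPKM above 0. All 7 neuronal markers examined were detected in the series, and their summed RPKM ran from 1375 to 2211 in Dbx1 neurons and from 1331 to 1835 in non-Dbx1 neurons. Non-Dbx1 replicate 1 stood apart in markers of other cells. The summed RPKM of 7 oligodendrocyte lineage markers was 458 there and 19.8 to 73.6 in the other 5 samples, and that of 5 red blood cell markers was 14058 there against 90.3 to 1198. The most abundant marker of the neurons was Tubb3 and that of red blood cells was Hbb-bs. Markers of microglia were low, with summed RPKM of at most 13.3 and Tmem119 at 0, and those of endothelium peaked at 71.5 in non-Dbx1 replicate 2. Markers of ependyma and choroid plexus reached 60.0 in non-Dbx1 replicate 1, with Folr1 at 0. For Atp1b3 and Fxyd7, the pump genes whose groups did not overlap, values without that sample are given as well.

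Both FXYD genes carry the motif after which the family is named, and it is shown because it is what places them among the regulators of the pump. The coding sequences below are from GENCODE vM21 transcripts on GRCm38, 60 bases each, read 5′ to 3′, with the codons of the FXYD motif in capitals.
Fxyd6: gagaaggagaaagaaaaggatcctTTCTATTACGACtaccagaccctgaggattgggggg
Fxyd7: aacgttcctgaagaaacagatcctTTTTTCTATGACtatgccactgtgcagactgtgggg
In Fxyd6 the motif occupied bases 85 to 96 of 282 coding bases, and in Fxyd7 bases 52 to 63 of 240. In both genes the motif was split by an intron, between exons 3 and 4 of Fxyd6 on the plus strand of chromosome 9 and between exons 2 and 3 of Fxyd7 on the minus strand of chromosome 7.

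The 6 genes spanned a wide range of levels. By mean RPKM over the 6 samples, Fxyd7 ranked 55, Fxyd6 ranked 100 and Atp1b1 ranked 105 among the 49568 gene names. Atp1b3 ranked 560 and Atp1b2 ranked 2456. Atp1a4 was barely detected. The difference between the groups was tested by limma, using log2(RPKM + 1) of the 17614 genes detected in 3 or more samples, at a false discovery rate (FDR) threshold of 0.1. L2FC is the mean log2(RPKM + 1) of the Dbx1 group minus that of the non-Dbx1 group. None of the 6 genes passed, where 0.00568% of all tested genes did, which is 1 of 17614. The authors' own test on counts (DESeq2) called more genes than this at the same threshold in the same samples. A gene that did not pass here is therefore not shown to be equal in the 2 groups. At an unadjusted p under 0.05 there was 1 of 6 in limma, against 5.2% of all tested genes, and it was Atp1b3. By direction, 1 of 6 was higher in the Dbx1 group, against 2.73% of all tested genes, and 0 of 6 were lower, against 2.48%. The L2FC was above 0 for 5 of the 6 genes, against 50.8% of all tested genes, and the median L2FC was 0.30 for the 6 genes and 0.0089 for all.

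**Figure D1:**
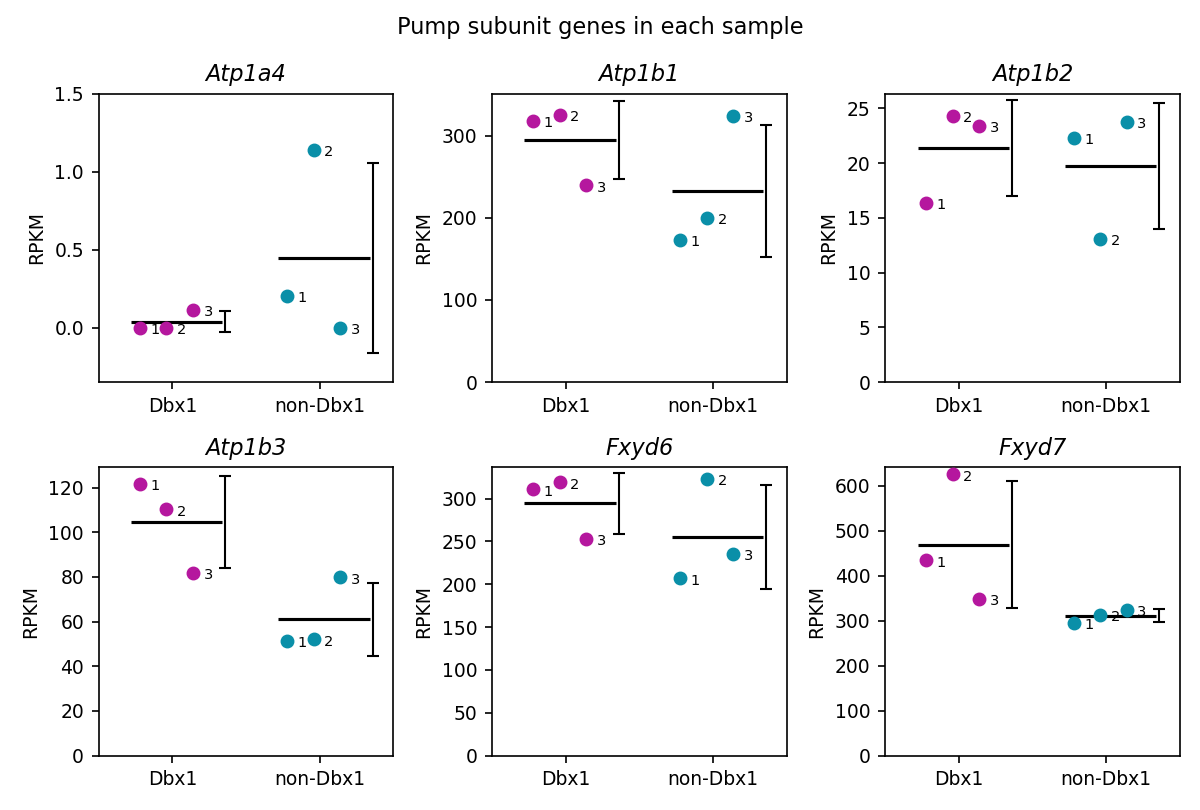
RPKM of each pump gene (vertical axes, a separate scale per gene) in the 3 Dbx1 and 3 non-Dbx1 samples, numbered by replicate, with horizontal bars for group means and whiskers for the SD. Atp1b3 and Fxyd7 are the genes whose groups do not overlap, and the gaps between the nearest samples are narrow, 81.9 against 79.9 RPKM and 348 against 324 RPKM.

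Atp1b1 (ENSMUSG00000026576), on the minus strand of chromosome 1 from 164437109 to 164458355 of GRCm38, encodes a beta subunit widely expressed in neurons. Its RPKM was 318, 325 and 239 in Dbx1 neurons and 173, 199.8 and 324 in non-Dbx1 neurons. Non-Dbx1 replicate 3 lay as high as the highest Dbx1 samples, and the groups overlapped. The means were 294 ± 47.5 and 232 ± 80.3 RPKM (SD, n = 3), from 4617 to 12588 reads per sample. The L2FC was 0.38 with an SE of 0.29 (limma FDR = 0.943; exact two-sided permutation test, p = 0.30). The 95% interval of the difference ran from a fold of 0.819 to 2.07. Exons of Atp1b1 share 575 bases with exons of Nme7 on the other strand. The amplification kit does not keep the strand and reads were counted without it, so reads there could not be told apart. Nme7 measured at most 1.69 RPKM, which does not show how reads on the shared bases were counted. If they were left out of both genes, the level of Atp1b1 is too low. Its share of the beta RPKM and its level against other genes would then be too low as well. This was not tested.

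Atp1b3 (ENSMUSG00000032412), on the minus strand of chromosome 9 from 96332655 to 96364442, encodes a beta subunit found across many tissues. RPKM measured 121.8, 110.2 and 81.9 in Dbx1 neurons and 51.3, 52.0 and 79.9 in non-Dbx1 neurons. The groups did not overlap, with Dbx1 replicate 3 and non-Dbx1 replicate 3 close to each other. Groups that did not overlap were found for 2 of the 6 pump genes, both higher in the Dbx1 group, and for 10.6% of all tested genes, of which 5.35% of tested genes were higher and 5.24% lower. The means were 104.7 ± 20.5 and 61.0 ± 16.3 RPKM (SD, n = 3). The L2FC of 0.78 carried an SE of 0.27 and a 95% interval from 0.17 to 1.39, which as a fold is 1.72, from 1.12 to 2.63. The unadjusted limma p was 0.0186, a value as low or lower in 2.02% of all tested genes, and the limma FDR was 0.912. The exact permutation test gave p = 0.10, the smallest that 3 samples against 3 allow.

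Summed red blood cell markers moved with Atp1b3 in the opposite direction, at 90.3 to 507 RPKM in Dbx1 neurons and 733 to 14058 in non-Dbx1 neurons, with all 5 markers detected. Their part in the result was not tested. Without non-Dbx1 replicate 1, the sample with most of that signal, the L2FC of Atp1b3 was 0.67 and its unadjusted limma p was 0.057. The unadjusted limma value also rose above 0.05 when Dbx1 replicate 1 (0.0637), Dbx1 replicate 2 (0.0573) or non-Dbx1 replicate 2 (0.065) was left out, with an L2FC of at least 0.66 each time. Without non-Dbx1 replicate 1, none of the 6 genes had an unadjusted p under 0.05, against 5.34% of all tested genes, and the limma FDR of each was at least 0.888.

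Atp1b2 (ENSMUSG00000041329), on the minus strand of chromosome 11 from 69599736 to 69605942, encodes a beta subunit that also serves in adhesion between neurons and glia and is abundant in astrocytes. RPKM was 16.3, 24.3 and 23.4 in Dbx1 neurons and 22.3, 13.1 and 23.7 in non-Dbx1 neurons. The lowest sample of each group lay well below its other 2 samples, and the groups overlapped. The L2FC of 0.13 was smaller than its standard error of 0.32 (limma FDR = 0.980; exact permutation test, p = 0.60), and it became −0.12 without non-Dbx1 replicate 2. The 95% interval of the fold ran from 0.658 to 1.83. The 7 astrocyte markers were all detected, with summed RPKM of 30.3 to 62.1 in Dbx1 neurons and 54.5 to 71.2 in non-Dbx1 neurons, and their part in the level of Atp1b2 was not tested.

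**Figure D2:**
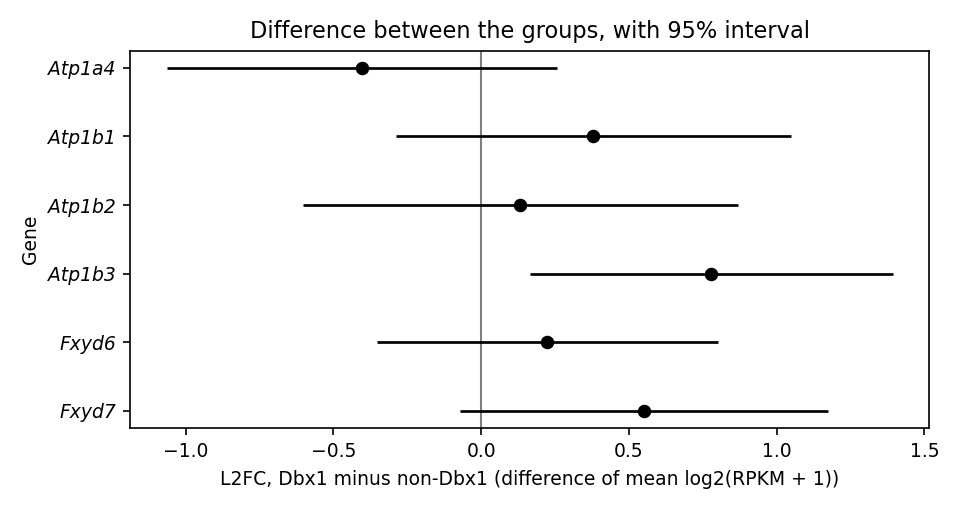
L2FC of each pump gene (horizontal axis, difference of mean log2(RPKM + 1), Dbx1 minus non-Dbx1) as a point with its limma 95% interval as a line. The interval of Atp1b3, from 0.17 to 1.39, is the only one of the 6 that leaves out 0.

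Within each sample, the 3 beta subunit genes can be set against each other without any scaling between samples. Atp1b1 made up most of the summed beta RPKM, with 69.7%, 70.7% and 69.5% in Dbx1 neurons and 70.2%, 75.4% and 75.8% in non-Dbx1 neurons. Atp1b3 made up 26.7%, 24.0% and 23.8% in Dbx1 neurons and 20.8%, 19.6% and 18.7% in non-Dbx1 neurons. The share of Atp1b3 was thus higher in each Dbx1 sample than in any non-Dbx1 sample, with means of 24.8% ± 1.63 and 19.7% ± 1.04 (SD, n = 3). Without non-Dbx1 replicate 1 the latter mean was 19.2%. The share of Atp1b2 ran from 3.58% in Dbx1 replicate 1 to 9.03% in non-Dbx1 replicate 1. With overlapping exons merged in the gene length, as described further on, the range for Atp1b2 was 5.73% to 13.9%, and its group means went from 5.22% to 8.24% for Dbx1 and from 6.51% to 10.1% for non-Dbx1. The ratio of Atp1b1 to Atp1b3 RPKM was 2.61 to 2.95 in Dbx1 neurons and 3.38 to 4.05 in non-Dbx1 neurons. The summed beta RPKM was 420 ± 65.3 in Dbx1 neurons and 313 ± 99.4 in non-Dbx1 neurons, and it overlapped with non-Dbx1 replicate 3 at 427. These shares and sums are descriptions and were not tested.

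**Figure D3:**
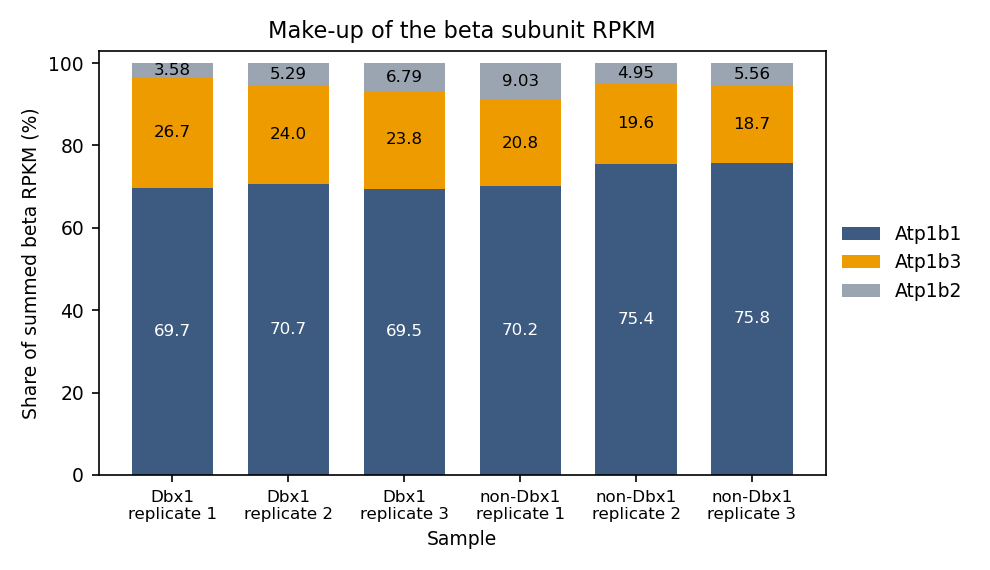
Share of each beta subunit gene in the summed RPKM of Atp1b1, Atp1b2 and Atp1b3 (vertical axis, percent) in each sample (horizontal axis). The middle band, Atp1b3, spans 23.8% to 26.7% in Dbx1 neurons and 18.7% to 20.8% in non-Dbx1 neurons.

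Among the pairs of the 5 genes detected in all samples, Atp1b1 and Atp1b3 had the most similar profiles. Similarity was measured as the root mean square difference of the mean-centred log2(RPKM + 1) over the 6 samples, which was 0.222 for this pair and 0.287 to 0.50 for the other 9. Genes outside the pump lay closer, down to 0.0826 for Atp1b1 and 0.117 for Atp1b3. The 250 bases before the RefSeq start of each gene (GRCm38.p6) are shown for these genes, on the minus strand and read 5′ to 3′. Capitals mark the GC box GGGCGG on either strand, the sequence to which Sp1-type factors are known to bind.
Atp1b1, chr1:164458356-164458605: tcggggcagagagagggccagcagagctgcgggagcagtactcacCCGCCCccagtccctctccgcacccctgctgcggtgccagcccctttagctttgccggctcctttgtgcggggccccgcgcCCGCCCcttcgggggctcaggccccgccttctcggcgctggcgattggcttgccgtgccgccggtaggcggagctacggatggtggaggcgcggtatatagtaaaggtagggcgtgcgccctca
Atp1b3, chr9:96364432-96364681: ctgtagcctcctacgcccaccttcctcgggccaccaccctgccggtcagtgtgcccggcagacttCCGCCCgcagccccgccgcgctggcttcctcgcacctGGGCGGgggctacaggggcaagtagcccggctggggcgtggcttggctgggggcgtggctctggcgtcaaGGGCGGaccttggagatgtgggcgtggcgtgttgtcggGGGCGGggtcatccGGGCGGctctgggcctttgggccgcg
The window held 2 GC boxes for Atp1b1 and 5 for Atp1b3, and 32.7% of the 32851 RefSeq promoter windows of the same length held at least 1. The CCAAT box (CCAAT, either strand) occurred 1 time for Atp1b1 and 0 times for Atp1b3, against 33.8% of windows with at least 1. TGACG, the core of the cyclic AMP response element, occurred 0 times and 1 time on either strand, against 17.8% of windows, and neither window held TATAAA, present in 12.4%. The other RefSeq start of Atp1b3 had 0 matches to any of these motifs, as did the window of Atp1a4, and that of Fxyd6 held 1 CCAAT box and none of the others. No window was available for Atp1b2 or Fxyd7, and a link between motifs and profiles was not tested.

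Fxyd7 (ENSMUSG00000036578), on the minus strand of chromosome 7 from 31042513 to 31051467, encodes a brain-enriched regulator that binds the pump. RPKM was 434, 625 and 348 in Dbx1 neurons and 295, 313 and 324 in non-Dbx1 neurons. The groups did not overlap, and the non-Dbx1 samples lay close together while Dbx1 replicate 2 stood well above the rest. The coefficient of variation was 30.2% in Dbx1 neurons and 4.69% in non-Dbx1 neurons, around means of 469 ± 141.7 and 311 ± 14.6 RPKM (SD, n = 3). The L2FC was 0.55 with an SE of 0.27 and a 95% interval from −0.07 to 1.17 (limma FDR = 0.912; exact permutation test, p = 0.10). It was 0.32 without Dbx1 replicate 2, whereas leaving out any other sample gave 0.51 to 0.74. The unadjusted limma value was 0.0761 with all samples and 0.0266 without Dbx1 replicate 3, and it was 0.107 to 0.289 when any of the other 5 samples was left out. With quantile normalization of all samples it was 0.0433 (limma FDR = 0.905). The summed red blood cell markers given above were lower in the Dbx1 group, where Fxyd7 was higher, and their part was not tested. Without non-Dbx1 replicate 1 the L2FC of Fxyd7 was 0.51.

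Fxyd6 (ENSMUSG00000066705), also called phosphohippolin, is a further brain FXYD regulator and lies on the plus strand of chromosome 9 from 45370185 to 45396159. It measured 311, 319 and 253 RPKM in Dbx1 neurons and 207, 323 and 235 in non-Dbx1 neurons. The highest value of all came from non-Dbx1 replicate 2, and the groups overlapped. The means were 294 ± 35.8 and 255 ± 60.6 RPKM (SD, n = 3), with an L2FC of 0.22 and an SE of 0.25 (limma FDR = 0.959; exact permutation test, p = 0.40). The 95% interval of the fold ran from 0.783 to 1.74. The ratio of Fxyd7 to Fxyd6 RPKM was 1.40, 1.96 and 1.37 in Dbx1 neurons and 1.43, 0.969 and 1.38 in non-Dbx1 neurons. Fxyd7 was thus the higher of the pair in all samples except non-Dbx1 replicate 2.

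The other FXYD genes were scarce beside these. All 5 were detected in at least 1 sample and 2 of them in all 6, but none exceeded 2.40 RPKM in any sample, and their summed RPKM ran from 1.79 to 5.09. Fxyd1, phospholemman, the regulator known from heart and muscle, measured 0.563, 0.966 and 1.10 RPKM in Dbx1 neurons and 1.04, 0.196 and 0.336 in non-Dbx1 neurons. Fxyd5, known from epithelia, measured 0.373, 0.0537 and 0 and 0.0417, 1.04 and 0.272. For both genes the groups overlapped, and neither had a limma FDR under 0.1.

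Atp1a4 (ENSMUSG00000007107), on the minus strand of chromosome 1 from 172223513 to 172258414, had reads in 3 of the 6 samples. It had 0, 0 and 3 reads in Dbx1 neurons and 5, 37 and 0 in non-Dbx1 neurons. In RPKM these were 0, 0 and 0.114 against 0.204, 1.14 and 0. Each group held at least 1 sample without reads, so the groups overlapped. Where there were no reads, 3 reads would have given between 0.0839 and 0.105 RPKM, a floor that covers counting error only. The L2FC of −0.40 (standard error 0.29, limma FDR = 0.940) rested on non-Dbx1 replicate 2, without which it was −0.08. It also depended on the pseudocount, at −1.38 with a pseudocount of 0.1 and −3.56 as the log2 ratio of the group means.

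The order of the levels was tested within samples, as the difference of log2(RPKM + 1) between 2 genes over the 6 samples, by an exact two-sided sign-change test whose smallest p is 0.0312. The 5 genes detected in all samples gave 10 pairs. From the top, the mean RPKM was 389.8 ± 125 for Fxyd7, 275 ± 49.4 for Fxyd6, 263 ± 68.0 for Atp1b1, 82.8 ± 29.1 for Atp1b3 and 20.5 ± 4.66 for Atp1b2 (SD, n = 6). Fxyd7 exceeded Fxyd6 in 5 of 6 samples, the log2 level of Fxyd6 minus that of Fxyd7 being −0.47 ± 0.32 (SD), which did not reach 0.05 (exact p = 0.0625, 0.0694 adjusted over the 10 pairs). Fxyd6 and Atp1b1 did not differ beyond their spread, with Atp1b1 higher in 3 of 6 samples (exact p = 0.62). Atp1b1 was above Atp1b3 in 6 of 6 samples by 1.69 ± 0.243 on the log2 scale, a fold of 3.22 (exact p = 0.0312, 0.0391 adjusted over the pairs). Atp1b3 was above Atp1b2 in 6 of 6 samples, the log2 level of Atp1b2 minus that of Atp1b3 being −1.92 ± 0.548 (exact p = 0.0312, 0.0391 adjusted).

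The levels depend on the exon length by which the authors divided, and that length could be read back from the steps between RPKM values. It was 8654 bases for Atp1b2, 4123 for Atp1b1, 2813 for Atp1b3, 5363 for Fxyd6 and 775 for Fxyd7. For Fxyd6 and Fxyd7 this equals the sum over all distinct annotated exons of GENCODE vM21, in which overlapping exons count more than once. For Atp1b1, Atp1b2 and Atp1b3 that sum was 3784, 8058 and 2628 bases, below the recovered lengths. For these beta subunit genes the change to merged lengths therefore holds more than the merging of overlaps. With overlaps merged, the annotated exons cover 4085 bases for Atp1b2, 3081 for Atp1b1, 2389 for Atp1b3, 4107 for Fxyd6 and 693 for Fxyd7. Dividing by the merged length raised Atp1b2 by 2.12 times, to a mean of 43.5 RPKM, and the other 4 genes by 1.12 to 1.34 times. The order of the 5 means stayed the same, at 436 for Fxyd7, 359 for Fxyd6, 352 for Atp1b1 and 97.6 for Atp1b3. The log2 level of Atp1b1 minus that of Fxyd7 went from −0.56, with Fxyd7 higher in 6 of 6 samples (exact p = 0.0312), to −0.30, with Atp1b1 higher in 1 of 6 (exact p = 0.0938). That of Atp1b2 minus Atp1b3 went from −1.92 to −1.11, with Atp1b3 still higher in 6 of 6 samples (exact p = 0.0312, 0.0446 adjusted over the pairs). The length is the same for all samples and leaves differences between the groups as they were, apart from the pseudocount.

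**Figure D4:**
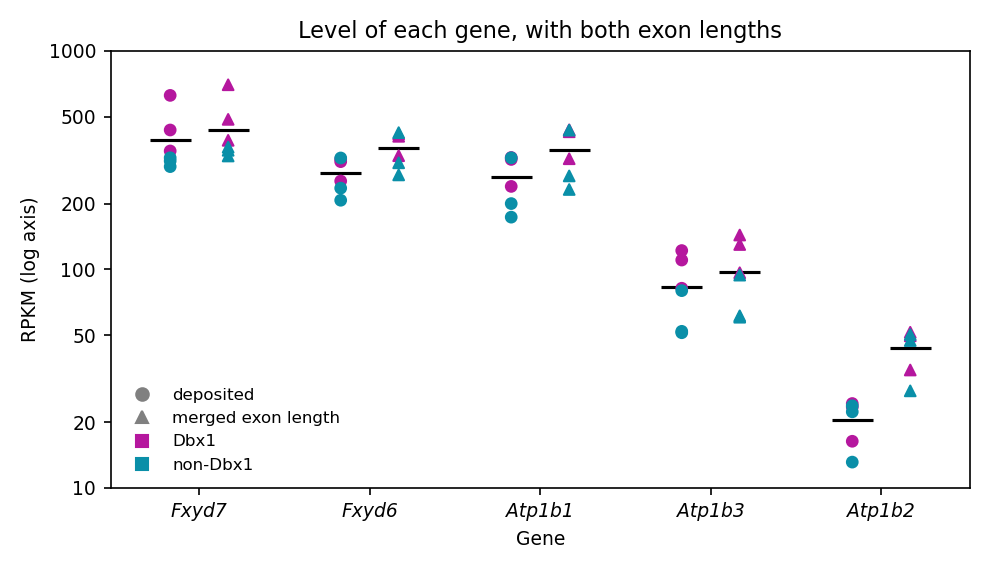
RPKM (vertical log axis) of the 5 genes detected in all samples, as deposited (circles) and with merged exon lengths (triangles), coloured by group, with a horizontal bar at each mean. Atp1b2 moves most, from a mean of 20.5 to a mean of 43.5 RPKM, and stays below Atp1b3.

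The wider pump family and its partners showed no gene past the FDR threshold. By name, 15 genes in the files belong to the alpha, beta and FXYD families, and 13 of them passed the filter on low values. Of these 13, 1 had an unadjusted limma p under 0.05, Atp1b3, where 5.2% of all tested genes did, and the median L2FC was 0.22 against 0.0089 for all tested genes. Without the 6 genes described above, 7 tested family members remained, with 3 L2FC above 0, 4 below, none at an unadjusted limma p under 0.05 and a median of −0.19. Of 8 partners and regulators of the pump, among them the Nkain proteins that bind its beta subunit, all were tested, 0 were higher and 1 was lower in Dbx1 neurons at an unadjusted limma p under 0.05, with a median L2FC of −0.31. Over all tested genes, 2.73% were higher and 2.48% lower by that measure. The 2 partners with the highest mean RPKM were Agrn and Mlc1. Agrn, the secreted proteoglycan agrin, which binds the pump in neurons, measured 5.22, 13.7 and 20.8 RPKM in Dbx1 neurons and 21.6, 15.8 and 12.4 in non-Dbx1 neurons, with overlapping groups (limma FDR = 0.956). Mlc1, an astrocyte membrane protein, measured 0.293, 5.98 and 7.62 RPKM in Dbx1 neurons and 24.1, 8.38 and 17.5 in non-Dbx1 neurons. The groups of Mlc1 did not overlap, with an L2FC of −1.94, an SE of 0.75 and a limma FDR of 0.912. The astrocyte marker sums given above overlapped between the groups, and their part in the level of Mlc1 was not tested. The 3 genes of the related proton-potassium pumps stayed low, with Atp4a at no more than 0.752 RPKM, Atp4b at no more than 0.689 and Atp12a listed at 0 in every sample. Atp1b4, the muscle member of the beta family, was also listed at 0 in every sample.

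The genes with profiles nearest to each pump gene were sought among the other 4424 genes with a mean RPKM of at least 10, by the same root mean square difference over the 6 samples. They are named as a description, since so many genes compared over 6 samples always yield near matches. Nearest to Atp1b1 were Gpm6a, a neuronal membrane glycoprotein, at 0.0826, Sptssa at 0.0835 and the processed pseudogene Gm15422 at 0.0869. Nearest to Atp1b2 were Ptpn5, a neuronal tyrosine phosphatase, at 0.0328, Galnt11 at 0.0633 and Id2 at 0.0655. Nearest to Atp1b3 were Fam92a at 0.117, Ccnh at 0.12 and the processed pseudogene Gm11993 at 0.137. Fxyd6 was nearest to the processed pseudogene Gm6788 at 0.0585, Cyhr1 at 0.0765 and Ttc19 at 0.0886, and Fxyd7 to Gm15487 at 0.112, Ahi1 at 0.122 and the processed pseudogene Gm16373 at 0.123.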

How the data were processed

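The authors amplified complementary DNA from 15 neurons per sample with a SMART-Seq kit and made Nextera libraries. They used TopHat2 for alignment to mm10 and HTSeq for counting. They deposited RPKM per gene and sample, with exon lengths from an Ensembl annotation (release not given in the sources used here). Beyond the division by the reads on all genes of each sample, there was no scaling between samples. Counts are not among the files used here, so the main test was limma 3.58.1 (eBayes with trend, R 4.3.3) on log2(RPKM + 1) in place of the DESeq2 test of the authors, two-sided, with Benjamini-Hochberg FDR over 17614 genes. Reads on genes and exon lengths were recovered from the steps between RPKM values. For genes in at least 4 samples, 99.0% of lengths came out whole within 0.02 bases. The floor of 3 reads covers counting error only. Replicates came from different mice. Positions are from GENCODE vM21. The fitting code was also run on data simulated around the recovered reads, with an outcome not reported here. Other steps used Python 3.11.15, numpy 2.4.6, pandas 2.3.3, scipy 1.17.1 and matplotlib 3.10.9. The genes and lists were chosen with earlier results of these data known. Named were the 6 genes, their family, the 2 highest of each partner list, the 3 nearest profiles per gene and the leading or absent markers; some genes that this rule covers are not reported here. Alternatives were other pseudocounts, filters, scalings, limma without trend, voom on recovered reads, a replicate block and each sample left out, and after seeing the data, merged exon lengths.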

Additional observations from a re-analysis of the deposited data

How the results depend on the processing

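No alternative gave any of the 6 pump genes an FDR under 0.1 in limma. The L2FC kept its sign in every alternative for Atp1a4, Atp1b1, Atp1b3, Fxyd6 and Fxyd7, and Atp1b2 reversed to −0.12 without non-Dbx1 replicate 2. With 1 sample left out, the L2FC ran from −0.63 to −0.08 for Atp1a4, from 0.20 to 0.64 for Atp1b1, from −0.12 to 0.31 for Atp1b2, from 0.66 to 0.99 for Atp1b3, from 0.09 to 0.41 for Fxyd6 and from 0.32 to 0.74 for Fxyd7. For Atp1a4 it was −1.38 with a pseudocount of 0.1 and −3.56 as the log2 ratio of group means. Over all genes, the count lower in the Dbx1 samples at FDR under 0.1 went from 1 to 0 with a pseudocount of 0.1, with genes above 0 in at least 1 sample and with voom on recovered reads, and to 3 in limma without the trend; the cause was not tested. Leaving out 1 sample gave 0 to 1 genes lower and 0 to 1 genes higher, the 1 higher being without non-Dbx1 replicate 2, where the count from all samples was 0. The replicate numbers did not pair the samples, with correlations of deviations of −0.107, 0.0248 and −0.0522 between samples of the same number, and the replicate block gave 0 genes lower and left Atp1b3 at an L2FC of 0.78 (limma FDR = 0.980). With merged exon lengths, the log2 level of Atp1b1 minus Fxyd7 was −0.30 and no longer passed, and the mean share of summed beta RPKM became 8.24% and 10.1% for Atp1b2 and 21.8% and 17.1% for Atp1b3 in the Dbx1 and non-Dbx1 samples. Voom and the filter on RPKM of at least 1 left no value for Atp1a4, whose few reads limit what can be seen.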
